A study of Mus musculus with 90 samples.

Results

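The comparison described here sets the spleen of Balb/c mice given 1.8 kBq of 211-astatine intravenously against the spleen of mice given 0 kBq, both 24 h after injection. Each group has 3 arrays. The series measured total RNA from fresh-frozen tissue on Illumina mouse bead arrays, with 90 arrays in 30 groups of 3 from spleen, lung, liver, kidney cortex and kidney medulla. The other spleen groups received 0.064, 0.64, 14 or 42 kBq of the same nuclide and were also taken at 24 h. Every array column of the deposited table whose label named spleen at 1.8 or 0 kBq was used, together with its detection p-value, and 15310 of the 25697 probes were detected on enough spleen arrays to be tested. These probes stand for 10409 genes. The labels do not say whether the 3 arrays of a group came from separate animals, so the p-values measure the spread between these arrays, which may in part be technical. The series title states that the work asked how tissues respond to low absorbed doses from injected 211-astatine.

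211-Astatine is a halogen radionuclide that emits alpha particles, which deposit their energy over a path of a few cell diameters and cause clustered DNA breaks. The spleen holds white pulp, where B and T cells lie in follicles and sheaths, and red pulp, where macrophages clear old red cells and, in mice, red cell precursors still divide. Lymphocytes are among the most radiosensitive cells of the body, and the classical early response to DNA damage runs through p53, which induces Cdkn1a and Mdm2. The tail of the pancreas lies against the spleen, so pancreatic tissue can be carried over at dissection.

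The values given below are log2 normalised intensities, called levels, and a change is the difference between the mean levels at 1.8 and 0 kBq on that scale. The 6 arrays resembled each other in general quality. Between 12865 and 13245 probes were detected per array at 1.8 kBq and between 12898 and 13428 at 0 kBq, and the median SD within a group was 0.169 and 0.154. On the scale shared by the 5 tissues, the median level of 21 B cell genes was 9.44 to 9.79 in spleen at 0 kBq against 6.41 to 6.7 in lung, and that of 34 erythroid genes was 11.32 to 11.47 in spleen, which matches the tissue label. The pancreas did not belong to that picture. Exocrine pancreatic enzymes took 4.2 to 5.05% of all corrected intensity on the 1.8 kBq arrays, 0.258 to 0.28% at 14 kBq, 2.02 to 2.08% at 42 kBq and 0.00894 to 0.0104% at 0 kBq. The arrays at 0.064 and 0.64 kBq had a larger spread (median SD 0.202 and 0.191). They are not compared here, but they shared in the normalisation, in the filter on detection and in the estimate of the spread.

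Over all tested probes, limma called 429 (2.8%) at a Benjamini-Hochberg adjusted p under 0.05, 220 of them higher (1.44%) and 209 lower (1.37%). With 1 probe taken per gene, 311 genes were called (2.99%), of which 172 were higher (1.65%) and 139 lower (1.34%). Of these, 53 higher genes belong to 4 lists of pancreas genes and are described last. Outside those lists 119 of 10338 genes rose (1.15%) and 139 fell (1.34%). The falls were mostly small, with a median of -0.57 and 12 beyond 1 on the log2 scale, and the rises had a median of 0.76. In each of these 258 genes the 3 values at 1.8 kBq lay outside the range of the 3 controls, which was also true of 1180 of all tested genes upwards (11.3%) and of 1547 downwards (14.9%). With 1 of the 6 arrays left out, the number of called probes was between 207 and 287. Without the 0.064 and 0.64 kBq arrays it was 1275, with 338 genes higher and 548 lower outside the pancreas lists.

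**Figure D1:**
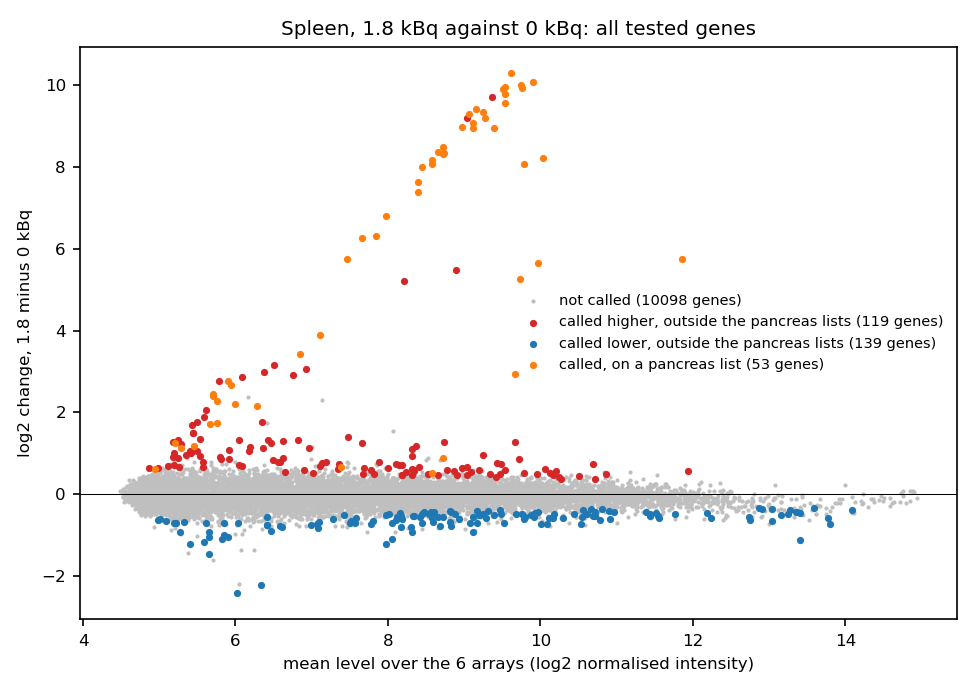
Mean level over the 6 arrays compared (x axis, log2 intensity) against the change at 1.8 kBq (y axis, log2), with 1 point per gene. Grey points are the 10098 genes not called. The 53 called pancreas genes have a median of 7.39, while 77 of the 119 other rises are at 1 or less and 12 of the 139 falls lie beyond 1.

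Genes of cell division had lower levels in the spleens given 1.8 kBq. The replication and mitosis list had 39 tested genes, of which 5 fell, against 1.34% of all tested genes. None rose, and 36 had a change below 0, against 52.7% of all tested genes. The median change was -0.40 against -0.02 over all tested genes. The 5 were Top2a, which relieves supercoils during replication, Mcm2 and Mcm4, subunits of the replicative helicase, Prc1, which bundles the midzone of the spindle, and Bub1b, a spindle checkpoint kinase. In 29 of the 39 genes the 3 values at 1.8 kBq were all below the 3 controls, against 14.9% of all tested genes. At an unadjusted p under 0.05, 23 of the 39 were lower, against 978 of the 10409 tested genes (9.4%). Markers of red cell precursors, which divide in mouse spleen, lay on the same side, with 29 of 34 erythroid genes below 0, a median of -0.37 and a summed linear level of 136000 to 146000 at 1.8 kBq against 164000 to 175000 at 0 kBq. Their part in the lower proliferation levels was not tested.

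Top2a measured 10.8, 10.95 and 10.93 at 0 kBq and 10.06, 10.15 and 10.3 at 1.8 kBq. The groups did not overlap, and the change was -0.72 (SE 0.14, adjusted p = 0.00416). Mcm4 measured 12.45, 12.57 and 12.53 against 11.9, 11.93 and 11.98, a change of -0.58 (SE 0.11, adjusted p = 0.00269). The arrays of each group lay within a narrow band around their mean for this gene. The other 2 Mcm4 probes, both near the limit of detection, were not called. Mcm2 measured 10.26, 10.55 and 10.38 against 9.74, 9.88 and 9.83 (change -0.58, adjusted p = 0.0106). Prc1 had a change of -0.58 (adjusted p = 0.0271) and Bub1b one of -0.55. The most negative value of the list was that of Ccna2 at -0.97 (adjusted p = 0.161), which encodes the S phase cyclin A2. Leaving out single arrays or changing the normalisation gave between 2 and 24 called members, and the 24 came from the fit without the 0.064 and 0.64 kBq arrays.

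Of 29 tested DNA repair genes 1 fell, against 1.34% of all tested genes, and 28 had a change below 0, against 52.7%. The list median was -0.24. The one that fell was Rad54l, a motor protein of homologous recombination, at 9.21, 9.25 and 9.2 in the controls and 8.42, 8.41 and 8.49 at 1.8 kBq. No control array was below any treated array, and the change was -0.78 (SE 0.15, adjusted p = 0.0045). Pcna, the sliding clamp of the replication fork, had a value of -0.93 (adjusted p = 0.209). Among 17 histone genes 3 were called lower and 1 higher, against 1.34% and 1.65% of all tested genes. H2ac7 and H2ac15 fell by 0.64 and 0.62. H4c3, not detected at 1.8 kBq, was at least 1.39-fold lower there. H2ac18 rose from 6.15, 6.18 and 6.23 to 7.0, 6.84 and 7.13 (change 0.80, adjusted p = 0.00439). The probes of these near-identical genes may share targets, so the assignment to a single histone gene is uncertain.

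The p53 targets showed no called change. None of the 20 tested members passed in limma, 10 were above and 10 below 0, and the median was 0.02. At an unadjusted p under 0.05, 2 members were higher and 1 lower. Cdkn1a, the cell cycle inhibitor that p53 induces, had a change of 0.19 (adjusted p = 0.685), Mdm2, the ubiquitin ligase that limits p53, one of -0.13 (adjusted p = 0.645), and Ccng1 one of -0.08 (adjusted p = 0.89). Among 14 tested Bcl2 family genes 2 were called higher, against 1.65% of all tested genes. Bok, a pro-apoptotic member, rose by 0.67 (adjusted p = 0.00806) and Bcl2, which blocks apoptosis, by 0.56 (adjusted p = 0.0403). For Bcl2 the call rests on 1 of 6 probes.

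Type I interferon response genes also had lower levels. Of 28 tested members 3 fell, against 1.34% of all tested genes, and none rose. A change below 0 was found in 26, against 52.7% of all tested genes. The list median was -0.40, or -0.33 with undetected genes at their bounds. The settings tried gave 1 to 11 called members, 11 of them without the 0.064 and 0.64 kBq arrays, and medians from -0.46 to -0.22. The summed linear level of the list was 27300 to 27600 on the 0 kBq arrays and 20400 to 20500 on the 1.8 kBq arrays. These genes are switched on through an interferon-stimulated response element in their promoters, to which the factor ISGF3 binds. RefSeq promoters were available for 19 of the genes, from 250 bases before to 50 after the start (GRCm38.p6), and 11 of them (57.9%) held GAAA, any 2 bases and GAAA again on either strand, against 1079 of 27025 promoters of all genes (3.99%). The promoter bases of Isg15 (chr4:156200819-156201068, minus strand, the 250 bases before the start) and Eif2ak2 (chr17:78882535-78882564, minus strand, 30 bases just after the start) are shown because they carry this match in the gene that encodes the ubiquitin-like protein ISG15 and in a called gene, with matched bases in capitals. The 3 matches in Isg15 overlap each other.
Isg15: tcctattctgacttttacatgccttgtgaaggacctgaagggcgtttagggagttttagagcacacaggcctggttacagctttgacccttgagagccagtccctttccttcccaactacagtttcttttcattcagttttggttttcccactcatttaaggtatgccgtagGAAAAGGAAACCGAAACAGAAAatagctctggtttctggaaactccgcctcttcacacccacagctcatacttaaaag
Eif2ak2: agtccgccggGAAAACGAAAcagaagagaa

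Oas2, which makes the second messenger that activates RNase L, had the strongest call of the list. Its levels were 8.50, 8.66 and 8.57 at 0 kBq and 7.14, 7.45 and 7.50 at 1.8 kBq. All 3 treated arrays lay below all controls, and the 2.32-fold fall was a change of -1.21 (SE 0.13, adjusted p = 2.04e-06). Usp18, a protease that removes the ubiquitin-like protein ISG15, fell by 0.59 (adjusted p = 0.00511) on all 3 of its probes. Eif2ak2, the kinase PKR that senses double-stranded RNA, measured 10.33, 10.53 and 10.41 against 9.77, 10.03 and 10.01 (change -0.49, adjusted p = 0.0191). Isg15 itself measured 11.03, 10.88 and 11 against 10.3, 10.08 and 10.27. Its groups did not overlap either, but its change of -0.75 had an adjusted p of 0.057. Oas3 was at -0.87 (adjusted p = 0.0697). The separate list of interferon gamma targets and chemokines had no called member among 22, 2 at an unadjusted p under 0.05, and a median of 0.07.

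The proliferation genes share other promoter letters. The CCAAT box, read on both strands as CCAAT or ATTGG, was found in 22 of 30 of their promoters (73.3%), against 11096 of all 27025 (41.1%), and in 8 of 19 interferon promoters (42.1%). TTCCCGC or TTGGCGC, the E2F letters, were found in 8 of 30 (26.7%) against 7.79% of all promoters, and in 12 of 22 repair gene promoters (54.5%). TTTGAA, the letters of the cell cycle homology region, were in 13 of 30 (43.3%) against 20.2%, and in 0 of 22 repair gene promoters. The 250 bases before the start of Top2a (chr11:99024190-99024439, minus strand) are shown because they hold 6 CCAAT matches, given in capitals.
Top2a: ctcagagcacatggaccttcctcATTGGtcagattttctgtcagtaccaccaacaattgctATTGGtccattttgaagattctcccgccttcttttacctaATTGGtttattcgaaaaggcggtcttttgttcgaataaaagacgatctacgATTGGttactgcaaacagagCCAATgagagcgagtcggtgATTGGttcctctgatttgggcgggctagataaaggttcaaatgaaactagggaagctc

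**Figure D2:**
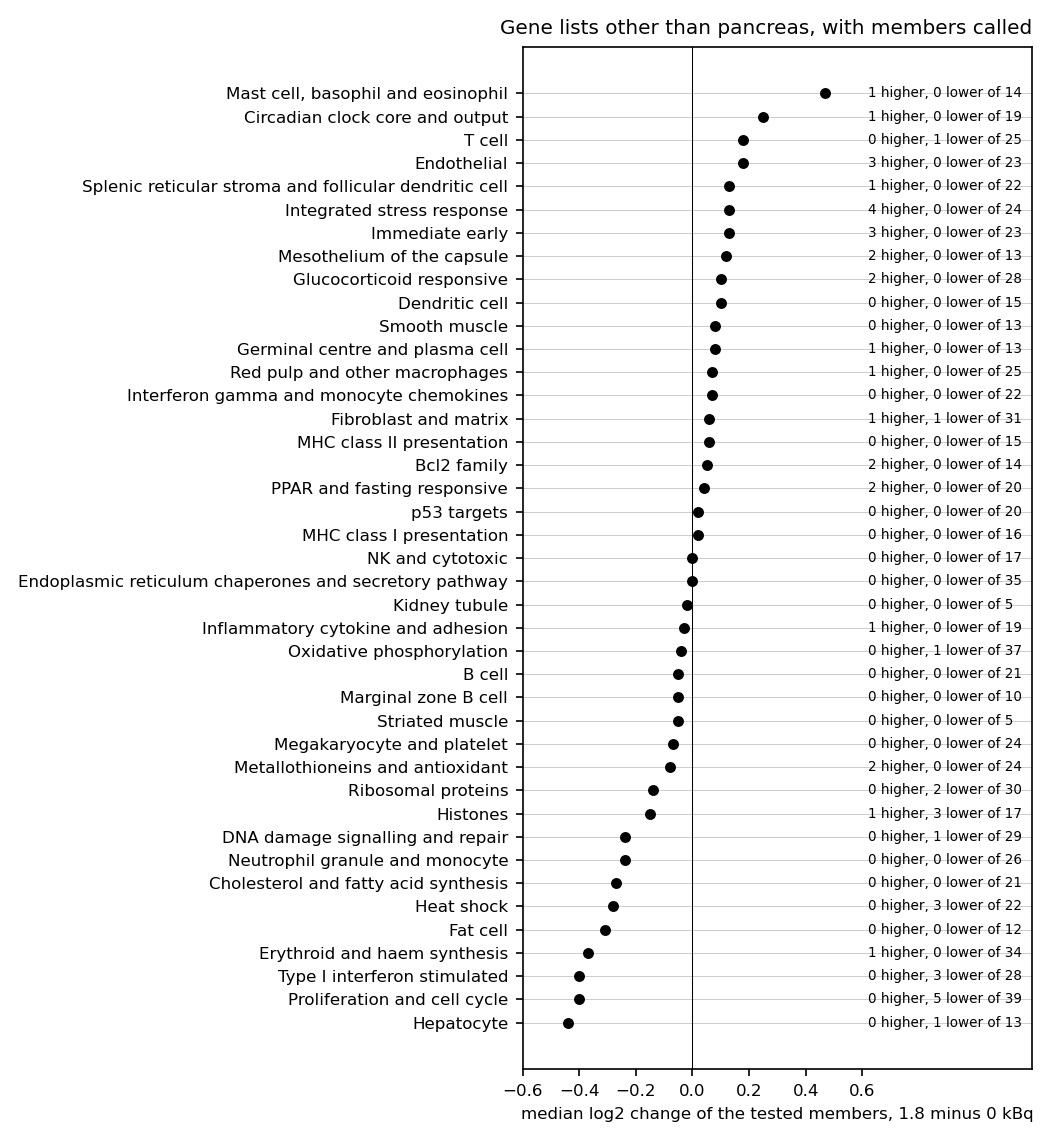
Median log2 change at 1.8 kBq (x axis) of the tested members of each gene list other than the pancreas lists, with the numbers called higher and lower. Proliferation, type I interferon and hepatocyte lists lie furthest to the left with medians of -0.40, -0.40 and -0.44, and the mast cell, basophil and eosinophil list furthest to the right with 0.47.

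Some cytosolic and mitochondrial chaperones fell as well. Of 22 heat shock genes 3 fell, against 1.34% of all tested genes, none rose, and the median was -0.28. Hsph1, a nucleotide exchange factor of Hsp70, measured 10.42, 10.31 and 10.65 in the controls and 9.79, 9.59 and 9.8 at 1.8 kBq, with no overlap and a change of -0.73 (SE 0.12, adjusted p = 0.000895). Fkbp4, a co-chaperone of Hsp90 and of steroid receptors, measured 11.05, 10.9 and 10.99 against 10.57, 10.41 and 10.38 (change -0.53, adjusted p = 0.00117). Hspd1, the mitochondrial chaperonin, fell by 0.48 (adjusted p = 0.0492) on 1 of 2 probes. The chaperones of the endoplasmic reticulum had no called member among 35 and a median of 0. At an unadjusted p under 0.05 were 6 of them, against 2469 of all 15310 tested probes. Hspa5 was at -0.55 (adjusted p = 0.451) and Xbp1 at 0.10.

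Several of the largest single falls were of genes outside these groups. Matn4, a matrilin of the extracellular matrix, measured 7.32, 7.55 and 7.42 at 0 kBq and 5.51, 5.01 and 5.15 at 1.8 kBq. The groups were far apart, with a 4.62-fold fall (change -2.21, SE 0.31, adjusted p = 0.000123), and 2 of the 3 treated arrays detected the gene. Atp5b, the catalytic beta subunit of ATP synthase, measured 13.88, 14.07 and 13.96 against 12.87, 12.93 and 12.75, a change of -1.12 (SE 0.09, adjusted p = 2.42e-08). It was the only one of 37 oxidative phosphorylation genes that was called, and the list had a median of -0.04. Grap2, an adaptor of T cell receptor signalling, measured 6.13, 6.14 and 6.26 against 4.73, 5.13 and 5.16 (change -1.17, adjusted p = 0.00093). Ethe1, a mitochondrial enzyme of sulfide breakdown, measured 8.72, 8.82 and 8.79 against 7.88, 7.96 and 7.71 (change -0.93, adjusted p = 0.000269).

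Falls near 1 on the log2 scale were found for Pklr, the pyruvate kinase of liver and red cells (-1.10, adjusted p = 0.00208, the second probe at -0.37 and not called), Ercc6l, a DNA translocase of mitotic chromosomes (-1.04, adjusted p = 0.0151), and Ubash3a, which dampens T cell receptor signals (-1.04, adjusted p = 0.017). Ugt8a, which makes galactosylceramide, fell by 1.09 (adjusted p = 0.0355). Gsdmc2, a gasdermin, fell by 1.00 (adjusted p = 0.00728), and Yod1, a deubiquitinase, by 0.92 (adjusted p = 0.00439) on 1 of 2 probes. Mov10, an RNA helicase, was below detection on all 3 treated arrays, at least 1.6-fold under the controls (adjusted p = 0.0299). Ribosomal protein genes had 2 called members of 30, against 1.34% of all tested genes called lower. They were Rps4x at -0.38 and Rpl27 at -0.37. The list median of -0.14 became 0.09 under median scaling.

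A few transcripts of liver proteins, present at low level in the control spleens, fell at 1.8 kBq. Mup2, a major urinary protein made by hepatocytes, measured 7.5, 7.1 and 7.07 against 5.25, 4.64 and 4.56 (change -2.41, adjusted p = 0.0368, 1 of 2 probes), and Mup6 fell by 1.45 (adjusted p = 0.0461). Both were detected on 3 arrays at 0 kBq and on 1 at 1.8 kBq, so the size of these falls is uncertain. Mup genes are near-identical copies, so the signal of a probe cannot be tied to 1 of them. Apoa1, the main protein of HDL particles, measured 6.25, 5.75 and 6.01 in the controls and was not detected at 1.8 kBq, at least 1.92-fold lower (adjusted p = 0.0117). Of 13 hepatocyte genes 11 had a change below 0, with a median of -0.44 and this 1 call. On the 5-tissue scale the list's median level was 5.44 to 5.79 in spleen at 0 kBq and 4.8 to 4.83 at 1.8 kBq, against 14.07 to 14.13 in liver, and the part of carried liver RNA in these values was not tested. In a tissue sample fewer cells of a type and less RNA per cell cannot be told apart, here or in the lists below.

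Markers of the main cell types of the spleen showed few calls. None of 21 B cell genes was called (3 at an unadjusted p under 0.05, median -0.05), and Cd79b, part of the B cell receptor, measured 12.52, 12.41 and 12.52 against 12.35, 12.45 and 12.43. Of 25 T cell genes only Ubash3a was called, the median was 0.18, and Cd3e had a change of 0.11. The erythroid and haem synthesis list had 29 of 34 genes below 0, against 52.7% of all tested genes, and a median of -0.37. In 23 of the 34 all treated values were below the controls, against 14.9% of all tested genes. At an unadjusted p under 0.05, 11 were lower, against 9.4%. The single call of this list was a rise of Mt1. Alas2, which starts haem synthesis in red cell precursors, measured 13.71, 13.8 and 13.56 against 13.23, 13.25 and 13.08 without passing (change -0.50, adjusted p = 0.251). The neutrophil list had 23 of 26 genes below 0, a median of -0.24 and no call. In 13 of the 26 all treated values were below the controls. At an unadjusted p under 0.05, 1 gene was lower, and S100a8 was at -0.03. In the fit without the 0.064 and 0.64 kBq arrays 21 erythroid and 10 neutrophil genes were called lower.

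Among the rises, Angptl4, an inhibitor of lipoprotein lipase induced by fasting and hypoxia, was called with a small spread. It measured 7.86, 7.72 and 7.65 at 0 kBq and 8.94, 8.7 and 8.96 at 1.8 kBq, a 2.18-fold rise without overlap (change 1.12, SE 0.12, adjusted p = 3.43e-06). Of 20 PPAR and fasting genes 2 were called higher, against 1.65% of all tested genes. The other one was Fgf21, a fasting hormone (0.70, adjusted p = 0.0432, detected on 1 control array). The list had a median of 0.04, and Pdk4 had a value of 0.55 (adjusted p = 0.395). Cirbp, an RNA-binding protein induced by mild cold and under circadian control, measured 6.92, 7.13 and 7.05 against 8.17, 8.26 and 8.43. All treated arrays exceeded all controls, by 2.38-fold on average (change 1.25, SE 0.17, adjusted p = 4.76e-05). It was the only call among 19 clock genes, of which 17 were above 0 with a median of 0.25. The clock output gene Dbp had a value of 0.41 (adjusted p = 0.272), Per1 0.02 and Arntl -0.17.

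Ddit4, an inhibitor of mTORC1 induced by stress and glucocorticoids, measured 9.02, 8.93 and 9.12 in the controls and 10.42, 10.15 and 10.33 at 1.8 kBq, a 2.43-fold rise without overlap (change 1.28, SE 0.26, adjusted p = 0.00807). Chac1, which degrades glutathione and is a target of ATF4, measured 6.12, 5.95 and 6.41 against 7.66, 7.39 and 7.42 (change 1.33, adjusted p = 0.00566). Nupr1, a stress-induced chromatin protein that is abundant in pancreatic acinar cells, rose from 8.2, 8.36 and 8.01 to 11.25, 11.15 and 11.03 (change 2.95, adjusted p = 6.5e-12). Nupr1 is also on the list of other acinar genes, so it counts among the called pancreas genes. Among 24 genes of the integrated stress response Ddit4, Chac1, Nupr1 and Fgf21 were called, against 1.65% of all tested genes called higher. The list median was 0.13. Atf4 and Asns, other genes of that response, had values of -0.05 and -0.17. Of 28 glucocorticoid-responsive genes Ddit4 and Mt1 were called, against the same 1.65%, and Tsc22d3 was at 0.43 (adjusted p = 0.216). Mt1, a zinc-binding metallothionein, measured 11.64, 11.5 and 11.8 against 12.2, 12.17 and 12.26 (change 0.56, adjusted p = 0.0477), Mt2 was at 0.80 (adjusted p = 0.156), and Gpx3, a secreted glutathione peroxidase, rose by 0.52 (adjusted p = 0.0368).

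Immediate early genes had 3 rises among 23 tested, against 1.65% of all tested genes. Rgs1, which damps chemokine receptor signalling in B cells, measured 8.73, 8.74 and 8.84 against 9.73, 9.87 and 9.61 (change 0.96, adjusted p = 0.0032). The groups did not overlap, and 1 of its 3 probes was called, the others having values of 0.73 and 0.70. Ccn2, a matricellular protein that fibroblasts secrete, measured 10.21, 10.44 and 10.34 against 10.79, 11.14 and 11.25 (change 0.73, adjusted p = 0.0028), and Ier3 rose by 0.72 (adjusted p = 0.0146). Saa3, an acute phase protein of macrophages and stroma, rose from 5.3, 5.3 and 5.52 to 6.6, 6.55 and 6.97 (change 1.33, adjusted p = 0.0192). It was the only one called of 19 inflammatory genes, whose median was -0.03.

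Genes typical of vessels, stroma and red pulp included a few called rises. Among 23 endothelial genes 3 rose, against 1.65% of all tested genes, with a list median of 0.18. Stab1, a scavenger receptor of sinus endothelium, rose by 0.71 (adjusted p = 0.0357). Robo4, a guidance receptor, rose by 0.59 (adjusted p = 0.0114) and Ramp2, part of the adrenomedullin receptor, by 0.56 (adjusted p = 0.0372). With median scaling none of the 3 was called. Timp1, a metalloproteinase inhibitor, rose by 0.79 (adjusted p = 0.0147) on 1 of 2 probes, the other being at 0.63 (adjusted p = 0.11), and Serpina3n, a serine protease inhibitor, by 0.76 (adjusted p = 0.0346). Cd163, the haemoglobin scavenger receptor of macrophages, measured 8.84, 8.41 and 8.7 against 9.22, 9.41 and 9.27 (change 0.65, adjusted p = 0.0162). It was the only call among 25 macrophage genes, whose median was 0.07.

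Epx, the peroxidase of eosinophil granules, measured 7.96, 7.71 and 7.88 in the controls and 8.86, 8.66 and 8.81 at 1.8 kBq, without overlap (change 0.93, SE 0.14, adjusted p = 0.00034). Of the 14 mast cell, basophil and eosinophil genes it was the only call, 12 were above 0 and the median was 0.47. Tpsab1, a mast cell tryptase that was not on the list, rose from 5.25, 5.74 and 4.88 to 8.22, 8.13 and 8.27 (change 2.92, SE 0.77, adjusted p = 0.0449). Other mast cell genes had high values with wide errors and did not pass, among them the protease genes Tpsb2 at 2.37 (adjusted p = 0.103), Mcpt4 at 2.30 (adjusted p = 0.251) and Cma1 at 1.74 (adjusted p = 0.123). Ulk4, a kinase-like gene, rose from 5.67, 4.86 and 5.87 to 7.62, 6.64 and 7.42 (change 1.76, adjusted p = 0.000534). Its array 2 was the lowest in both groups.

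**Figure D3:**
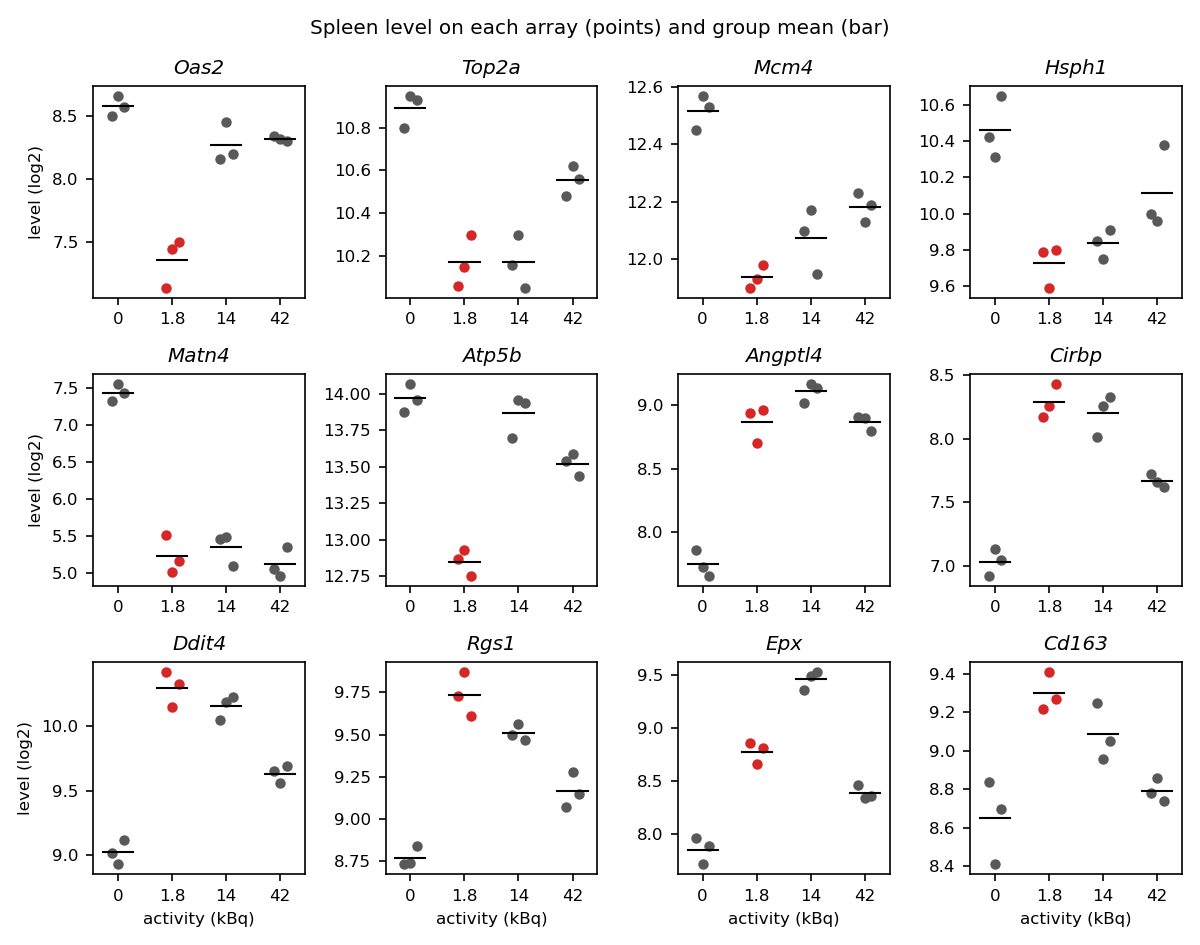
Level of 12 genes (log2 normalised intensity, y axis) on each spleen array at 0, 1.8, 14 and 42 kBq (x axis), with 1 point per array and a bar at the group mean. Oas2 and Atp5b were low at 1.8 kBq relative to all other groups, while Matn4 was low and Angptl4 high at all 3 activities.

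The same genes were then set beside the 14 and 42 kBq groups. All 3 activities were compared with the same 3 control arrays, so likeness between these comparisons is in part built in and is given only as values. At 14 kBq 243 genes were higher (2.33%) and 139 lower (1.34%) than at 0 kBq, and at 42 kBq 59 were higher (0.567%) and 8 lower (0.0769%). The 139 genes that fell at 1.8 kBq had a median change of -0.31 at 14 kBq and -0.25 at 42 kBq, and 28 and 7 of them were called lower there. The 119 rises outside the pancreas lists had medians of 0.43 and 0.41, with 42 and 14 called higher. Matn4 had a change of -2.09 at 14 kBq and -2.32 at 42 kBq, and Angptl4 one of 1.37 and 1.13, all called. Top2a was at -0.73 and -0.34, and the proliferation list had a median of -0.47 with 10 falls at 14 kBq and of -0.25 with none at 42 kBq. Cirbp had 1.17 (adjusted p = 0.000243) and 0.63 (adjusted p = 0.137). The interferon list had a median of -0.11 at 14 kBq and 0.10 at 42 kBq, against -0.40 at 1.8 kBq.

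**Figure D4:**
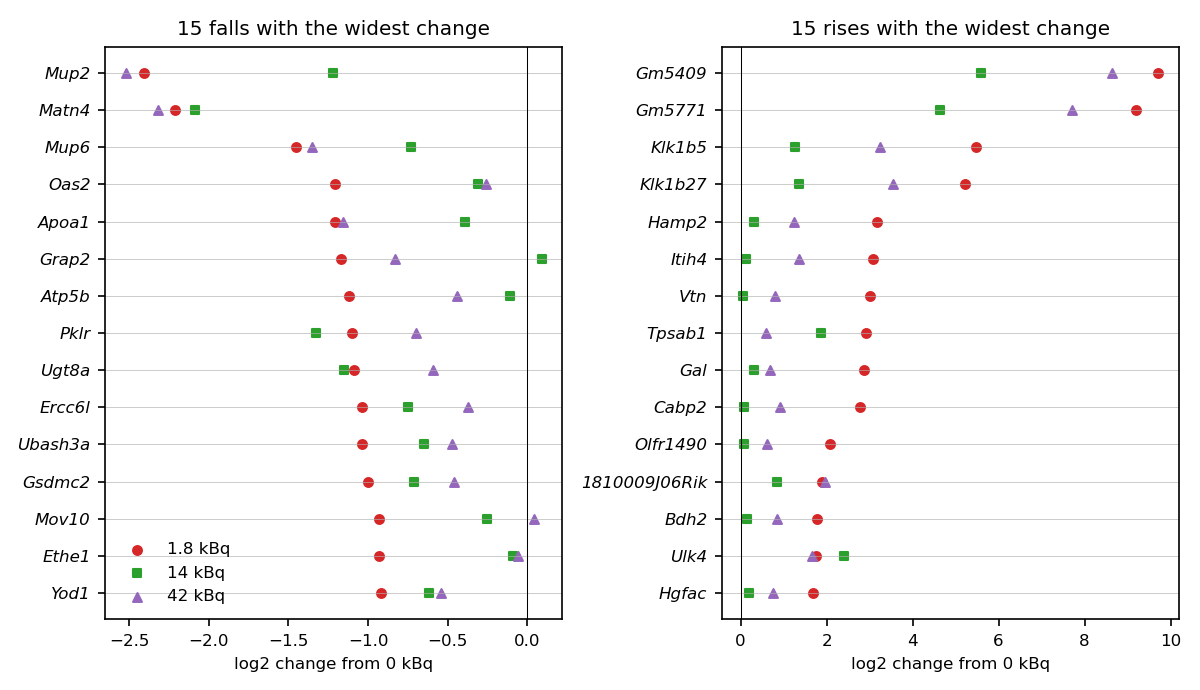
Change from 0 kBq (x axis, log2) at 1.8, 14 and 42 kBq for the 15 largest falls and 15 largest rises at 1.8 kBq outside the pancreas lists, with 1 symbol per activity. The comparisons share the 3 control arrays, and values against an undetected group are fitted differences, not bounds. Matn4 lies near -2 at each activity, and Atp5b and Oas2 lie nearer to 0 at 14 and 42 kBq.

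Direct tests between the activities do not use the control means, though the control arrays shared in the normalisation, the filter and the estimate of the spread. Against 14 kBq, 247 genes differed at 1.8 kBq (2.37%, with 1.12% of probes higher and 1.14% lower), of which 70 outside the pancreas lists were higher and 125 lower. Against 42 kBq, 85 genes differed (0.817%, with 0.581% of probes higher and 0.131% lower), with 27 higher and 16 lower outside those lists. Oas2 measured 8.16, 8.45 and 8.2 at 14 kBq and 8.34, 8.32 and 8.3 at 42 kBq. Every 1.8 kBq array lay below all 6 of these, and the differences were -0.91 (adjusted p = 0.000161) and -0.96 (adjusted p = 0.000119). Oasl2, another member of the oligoadenylate synthetase family, was lower than at 42 kBq by -0.87 (adjusted p = 0.0074). Atp5b differed by -1.01 from 14 kBq (adjusted p = 1.41e-07) and by -0.68 from 42 kBq (adjusted p = 0.000119). Ethe1 differed by -0.84 (adjusted p = 0.00109) and -0.87 (adjusted p = 0.00102).

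Grap2 was lower than at 14 kBq by -1.26 (adjusted p = 0.00042), Usp10, a deubiquitinase, by -1.13 (adjusted p = 0.0011), and Tnrc6b, a partner of Argonaute in silencing by miRNAs, by -1.0 (adjusted p = 0.00403). Ear6, a ribonuclease of the eosinophil family, differed by -1.43 (adjusted p = 2.89e-06), and Epx by -0.68 (adjusted p = 0.00942). Oas1g was higher at 1.8 than at 14 kBq (adjusted p = 0.00515), being detected on all 3 arrays at 0, 1.8 and 42 kBq and on none at 14 kBq. Fam177a and S100pbp were lower than at 42 kBq by -1.02 (adjusted p = 0.0115) and -0.92 (adjusted p = 0.00818).

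The spleen change at 1.8 kBq was also tested against the mean change at 1.8 kBq in lung, liver, kidney cortex and kidney medulla, in 1 fit of all 90 arrays. Of 19538 probes 1.31% were higher and 1.09% lower, and of 12958 genes 349 differed (2.69%). They included 122 of the 258 genes called in spleen outside the pancreas lists. Oas2 changed by -1.25 in spleen on this scale, 0.15 in lung, -0.41 in liver, -0.35 in cortex and 0.15 in medulla, a difference of -1.14 (adjusted p = 7.39e-06). Matn4 differed by -1.79 (adjusted p = 1.6e-05) and Atp5b by -0.77. Top2a was at -0.80 in spleen and at 0.58 and 0.44 in cortex and medulla (difference -0.99, adjusted p = 0.0154), and Rad54l differed by -0.83 (adjusted p = 0.0066). Epx was at 0.96 in spleen and between -0.02 and 0.18 elsewhere (difference 0.91, adjusted p = 1.19e-07). Ddit4 differed by 0.93 (adjusted p = 0.0293), but it was also called higher in medulla (0.88, adjusted p = 0.00434). It was at 1.39 in spleen, 0.66 in lung, 0.18 in liver and 0.14 in cortex.

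Other genes had values of the same sign in several tissues. Fkbp4 was lower in all 5, by -0.59 in spleen, -0.57 in lung, -0.72 in liver, -0.39 in cortex and -0.33 in medulla, each with an adjusted p under the threshold, and the spleen value did not differ from the mean of the others (adjusted p = 0.814). Hsph1 was at -0.81, -1.15, -1.21, -0.78 and 0.01 in the same order (adjusted p of the difference 0.971). Cirbp was at 1.28, 0.57, 0.4, 0.71 and 1.2 (adjusted p = 0.195), and Angptl4 at 1.17, 0.91, 0.14, 0.9 and 1.16 (adjusted p = 0.359). Egr1, an immediate early transcription factor, was at -0.06 in spleen and 1.41, 2.58, 1.0 and 1.73 in the other tissues, a difference of -1.74 (adjusted p = 3.14e-05). Lcn2, an iron-trapping acute phase protein, was at -0.36 in spleen and at 3.48 and 3.33 in cortex and medulla (difference -2.37, adjusted p = 9.54e-05).

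**Figure D5:**
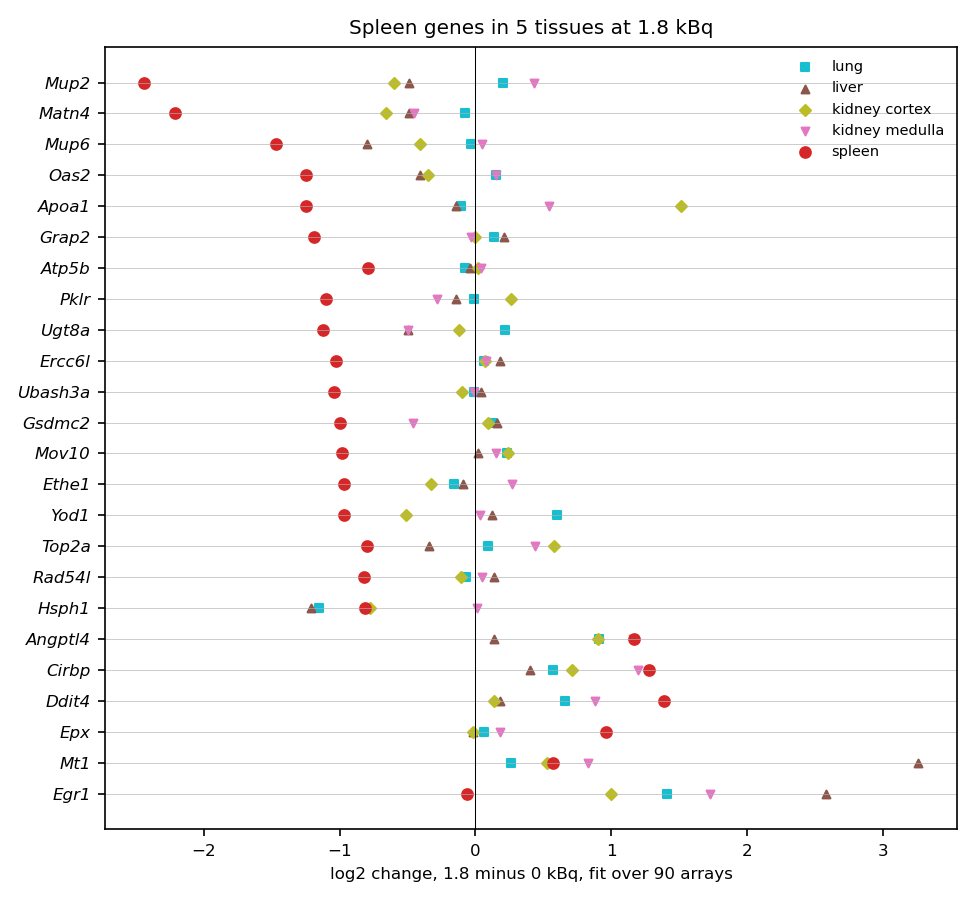
Change at 1.8 kBq from 0 kBq (log2) of 24 genes in spleen, lung, liver, kidney cortex and kidney medulla, from the fit of all 90 arrays, with 1 symbol per tissue. Hsph1 lies below 0 in every tissue but kidney medulla, while Oas2, Matn4 and Atp5b are lower in spleen than in the other 4.

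Several of the largest rises outside the pancreas lists followed the activities in the same order as the pancreas signal, which was highest at 1.8 kBq, then at 42 and then at 14 kBq. This order in the change held for 1762 of all 10409 tested genes (16.9%), for 27 of the 42 rises over 1 (64.3%), for 16 of the 77 smaller rises (20.8%) and for 50 of the 53 called genes of the pancreas lists (94.3%). The rises were picked for a high value at 1.8 kBq, so the share over all tested genes is not a like baseline for them. The order itself was read from the pancreas genes. These shares therefore do not test a link between the rises and the pancreas signal. The genes with the largest rises were Gm5771 (at least 389-fold) and Gm5409 (at least 583-fold), the latter annotated as a pseudogene and once named Try10l, neither detected in the controls. Klk1b5 and Klk1b27, tissue kallikreins, rose by 5.47 and 5.21, Klk1b27 on 1 of 2 probes. Hamp2, a hepcidin gene, was at least 8.27-fold higher, Gal, a neuropeptide, at least 5.59-fold and Cabp2 at least 4.39-fold. Itih4 and Vtn, which encode plasma proteins, rose by 3.07 and 3.00, with Vtn detected on 1 control array. Olfr1490, 1810009J06Rik, Bdh2 and Hgfac, also not detected in the controls, were at least 3.06-fold, 2.83-fold, 2.54-fold and 2.36-fold higher. Whether carried pancreas tissue accounts for these rises was not tested.

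The pancreas genes themselves rose on every 1.8 kBq array. All 22 tested exocrine enzyme genes were called, with changes from 5.25 to 10.29 and a median of 9.01, and the median was 4.24 at 14 kBq and 7.7 at 42 kBq with all 22 called at each. With undetected controls at their bounds the medians were 8.72, 4.02 and 7.49. Clps, the colipase that anchors pancreatic lipase to fat droplets, measured 4.38, 4.45 and 4.59 at 0 kBq, where it was not detected, and 14.74, 14.79 and 14.76 at 1.8 kBq, at least 848-fold higher. Cpa1, a carboxypeptidase, measured 4.61, 4.83 and 4.57 against 13.9, 13.86 and 13.83. The 3 treated arrays differed from each other by less than 0.1 in both genes. The lower bounds were 950-fold for Cela2a, an elastase, 834-fold, 825-fold and 685-fold for the trypsinogens Try10, Try4 and Try5, 709-fold for the amylase Amy2a5, 625-fold for Pnliprp1 and 449-fold for Rnase1.

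Other acinar genes followed with smaller changes, 27 of 35 being called and the median being 2.41. With undetected genes at their bounds the median was 2.06, and on the authors' deposited values it was 0.97. Reg1, a regenerating islet-derived protein of acinar cells, was at least 675-fold higher, Sycn, a zymogen granule protein, at least 408-fold, Reg2 at least 342-fold, Dmbt1 at least 243-fold and Reg3b at least 222-fold. Zg16, a lectin of zymogen granules, was 296-fold higher. Fkbp11, a secretory pathway isomerase shared with plasma cells, rose by 0.89 (adjusted p = 0.000414). Of 9 duct and epithelial genes, the transcription factor Foxa3 and the keratin Krt8 rose by 1.72 and 1.18, each detected on 1 control array, and the keratin Krt18, not detected in the controls, was at least 1.15-fold higher. Both keratins are also on the mesothelium list. Of 5 tested islet genes 1 was called. Ins2, an insulin gene, was not detected in the controls at 4.5, 4.65 and 4.64 and measured 7.17, 7.32 and 7.34 at 1.8 kBq, at least 4.73-fold higher. It was not detected on any array at 14 or 42 kBq, and the test of 1.8 against 42 kBq gave an adjusted p of 8.78e-10.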

How the data were processed

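Total RNA from spleen was extracted with a lipid tissue kit, checked on a Bioanalyzer and biotin-labelled, per the labels' protocols. The authors deposited a table with an intensity and a detection p-value per probe for each of 90 arrays, and a table of processed values, used as an alternative, whose normalisation is not given in the sources used here. The intensities of that second deposited table are linear, with a median per array of 117.7 or 117.8 at 0, 1.8, 14 and 42 kBq and of 165.4 at 0.064 and 0.64 kBq, and were taken to log2 with no further step; how the authors centred and scaled them is unknown. Deposited intensities were background-corrected from the detection p-values (normexp, offset 16), taken to log2 and quantile normalised over the 18 spleen arrays. Probes with a detection p under 0.05 on at least 3 of 18 arrays were tested with limma 3.58.1 (R 4.3.3), a mean per group, an intensity trend and Benjamini-Hochberg adjustment over all tested probes; a call is an adjusted p under 0.05. No count of molecules stands behind the values, and 3 arrays per group limit the precision; an exact permutation test of 3 against 3 cannot go below p = 0.1. For tissues, 90 arrays were normalised together and 19538 probes tested.

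Each gene was represented by its brightest probe on average in spleen, and 23978 probes had 1 symbol, none had several and 1719 had none. Of 1255 listed gene names 1123 matched the array. The members and the 48 gene lists were chosen with earlier results of these data known. Named genes were the 15 largest called rises and falls outside the pancreas lists, and up to 4 called members per list. They also included a fixed set of markers and the 8 and 6 largest pancreas changes. The 5 largest differences from 14 kBq, 42 kBq and the other tissues were named as well. Oas3, Ccna2, Pcna, Atf4, Asns, Cpa1, Cd79b, Bub1b, Adipoq and the mast cell proteases not called were added after their values were seen. Of the fixed set, among others, Bax, Mki67, Hbb-b1, Fcrls, Gcg and Krt19 had no tested probe here. Fold bounds use the lowest detected signal of each array. The analysis scripts were tested on simulated data. Alternatives changed the background correction, normalisation, filter, arrays fitted, replicate block and variance trend.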

Additional observations from a re-analysis of the deposited data

Results flagged for a closer look

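The results below had a change at 1.8 kBq in spleen that differed from the mean change of the other 4 tissues, by the tissue interaction term of the limma fit over 90 arrays (adjusted p under 0.05). Values are fitted differences on the log2 scale, spleen minus the others, and are not bounds where a gene was undetected in a group. Groups of 3 arrays allow no test for an outlying array.

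Higher in spleen were the predicted genes Gm5409 (9.63) and Gm5771 (9.24), the kallikreins Klk1b5 (5.64) and Klk1b27 (5.34), and Vtn (3.11), Hamp2 (3.04), Itih4 (2.91), Cabp2 (2.86), Gal (2.85) and Ins2 (2.65). The mast cell tryptase Tpsab1 differed by 2.93. Smaller differences were those of Olfr1490 (2.21), 1810009J06Rik (1.92), Bdh2 (1.81) and Hgfac (1.7). Ulk4 differed by 1.48 from the mean of the others, but its rise was larger in kidney medulla than in spleen. It was at 1.77 in spleen, 2.92 in medulla and -1.42 in lung.

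With the spleen change below that of the other tissues were Matn4 (-1.79), Grap2 (-1.27), the interferon-induced Oas2 (-1.14), Mov10 (-1.14), Ercc6l (-1.13), Pklr (-1.06), Yod1 (-1.03), Ubash3a (-1.02), Top2a (-0.99), Gsdmc2 (-0.97), Ethe1 (-0.89) and Atp5b (-0.77). Mt1 differed by -0.65, with a value of 0.57 in spleen and 3.26 in liver. Egr1 (-1.74) and Lcn2 (-2.37) were not called in spleen and had positive values in other tissues. Among liver-type transcripts, Apoa1 (-1.7) was at -1.25 in spleen and 1.51 in kidney cortex. The fibrinogen chain Fga (-1.92) was at -0.92 in spleen without a call and 2.87 in cortex. The cytochrome Cyp2e1 (-3.52) was at -2.21 in spleen, 2.54 in lung, 1.32 in cortex and 1.38 in medulla.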

How the results depend on the processing

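The 429 called probes became 242 with median scaling, 275 with pancreas probes left out before normalising, 1275 without the 0.064 and 0.64 kBq arrays (505 higher and 770 lower, 39.6% higher against 51.3%) and 897 with only the 6 arrays, and stayed between 353 and 496 under the other settings. Of the 429, 427 were kept among the 1275. Without 1 array the count was 207 to 287, being 264, 207 and 287 without 0 kBq array 1, 2 or 3 and 224, 269 and 241 without 1.8 kBq array 1, 2 or 3. Outside the pancreas lists the genes higher and lower, 119 and 139, became 51 and 65 with median scaling and 117 and 80 with pancreas probes left out. The 345 probes that differed from 14 kBq became 171 with median scaling, 182 with pancreas probes left out, 931 without the low-activity arrays and 567 with the arrays compared alone, and 186 to 226 without 1 array. The 109 that differed from 42 kBq became 50 with pancreas probes left out, 276 without the low-activity arrays, 201 with the arrays compared alone and 72 to 86 without 1 array. The 467 of the tissue difference became 246 with median scaling and 1315 without the low-activity arrays, and 317 to 390 without 1 array. The cause of these moves was not tested.

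No setting turned the direction of a named call. Of 87 named called genes 57 passed under every setting that kept all 6 arrays and 53 with each array left out. A setting counted only where the gene was tested, which held for 67 of the 87 with pancreas probes left out. In each fit without a 1.8 kBq array 85 of the 87 were tested. The calls of Tpsab1, Mup2, Mup6, Mov10, Bcl2, Hspd1, Fgf21, Rps4x, Rpl27 and Tnrc6b were each lost in 10 or more of 19 settings. Those of Prc1, Mt1 and H4c3 were lost in 9, those of Stab1, Ramp2 and Serpina3n in 8, and those of H2ac7 and Gpx3 in 7. That of H2ac15 was lost in 6, and those of Robo4, Apoa1, Ubash3a, Ier3 and Saa3 in 5. The call of Krt18 was lost in 6 of 15 settings. Isg15 was called lower in 4 of 19. Replicate numbers do not pair the arrays by the labels, which do not say what a shared number marks. Arrays with the same number correlated by 0.181, 0.096 and 0.137 in their deviations, above all pairs with different numbers (-0.159 to 0.03). The main fit did not include the replicate number. With the replicate block 487, 344, 113 and 507 probes were called in the 4 comparisons. Levels near 5, the lowest detected, carry bounds rather than folds.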

Other observations

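Some other gene groups had no call by limma at 1.8 kBq, with more members below 0 than above. Of 21 genes of cholesterol and fatty acid synthesis 16 had a change below 0, against 52.7% of all tested genes, with a median of -0.27. At an unadjusted p under 0.05, 8 were lower, against 9.4% of all tested genes. Of 12 fat cell genes 8 were below 0 and 4 above. Their median was -0.31, or -0.16 with undetected genes at their bounds. The adipokine Adipoq, the lowest of that list, measured 6.52, 6.5 and 6.5 at 0 kBq and 4.92, 5.14 and 4.64 at 1.8 kBq (change -1.61, adjusted p = 0.0719). Its groups did not overlap. The liver cytochrome Cyp2e1 measured 7.38, 7.23 and 6.79 against 4.76, 5.23 and 4.84 (change -2.19, adjusted p = 0.0822), also without overlap. Both were detected on 1 of the 3 arrays at 1.8 kBq.

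Lists of other immune cells lay close to the median of all genes, -0.02. The medians were 0 for 17 NK and cytotoxic genes, 0.10 for 15 dendritic cell genes, -0.05 for 10 marginal zone B cell genes, -0.07 for 24 megakaryocyte genes, 0.02 for 16 MHC class I genes and 0.06 for 15 MHC class II genes, with no member called in these 6 lists. At an unadjusted p under 0.05, no list of the 6 had more than 3 members. Markers of kidney tubule, with 5 tested genes, had a median of -0.02.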
